A study of Caenorhabditis elegans with 8 samples.

Results

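The genes described here are 10 genes of Caenorhabditis elegans whose products make a neurotransmitter or load it into synaptic vesicles. They were taken from a fixed list of names and looked up in the count files of all 8 libraries, where all 10 were found among 46928 gene rows. For acetylcholine they are cha-1, which encodes choline acetyltransferase, and unc-17, which encodes the vesicular acetylcholine transporter. For glutamate the gene is eat-4, the vesicular glutamate transporter. For GABA they are unc-25, glutamate decarboxylase, and unc-47, the vesicular GABA transporter. For the monoamines they are cat-1, the vesicular monoamine transporter, cat-2, tyrosine hydroxylase of the dopamine pathway, tph-1, tryptophan hydroxylase of the serotonin pathway, tdc-1, tyrosine decarboxylase, which makes tyramine, and tbh-1, tyramine beta-hydroxylase, which turns tyramine into octopamine.

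A neuron is assigned to a transmitter class by which of these enzymes and transporters it expresses, so that their RNA in sorted material is a sign of which neuron classes contributed. The ASI pair, the chemosensory neurons at which the sort was aimed, has no classical transmitter assigned in reporter-based maps of the worm nervous system. The genes tdc-1 and tbh-1 are known to be expressed outside neurons too, both in the sheath cells of the gonad and tdc-1 also in the uv1 cells of the uterus.

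The study compared 4 libraries of skn-1gf(lax188) animals, whose allele makes the stress-response transcription factor SKN-1 overactive, with 4 libraries of wild-type (N2) animals. All animals carried daf-7p::gfp, in which the promoter of a TGF-beta ligand gene, active mainly in ASI, drives green fluorescent protein, and were grown at 20 °C and collected at the L4 larval stage. Animals were dissociated with a detergent and reductant followed by Pronase, and cells were stained with DAPI for viability and sorted by flow cytometry. The RNA extraction text speaks of homogenised animals. The labels name the libraries biological replicates without giving their origin further, so p-values measure the spread between these libraries, which may be technical.

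Libraries held 2976889 to 9680840 gene counts in skn-1gf and 5475892 to 10740970 in wild type, and between 11909 and 20394 genes had a count. Wild-type replicate 2 had the fewest genes with a count and stood apart from the other libraries. Ribosomal RNA made up 32.8% of its gene counts, against 6.90 to 21.8% in the other libraries. The labelled neuronal origin was checked with 20 pan-neuronal genes, which took 0.0698 to 0.303% of protein-coding counts in skn-1gf and 0.0833 to 0.402% in wild type, while 6 body wall muscle genes took 0.651 to 2.91% and 1.13 to 2.06%. Of 7 ASI marker genes, 4 passed the low-count filter. The summed share of all 7 was 0.00135 to 0.0195% in skn-1gf and 0.00132 to 0.00295% in wild type. The receptor gene str-3 was at 0 counts in every library but wild-type replicate 2, and str-2 at 0 in every library but skn-1gf replicate 4. The gene daf-7, whose promoter drove the sorted label, averaged 20.3 ± 17.4 CPM in skn-1gf and 4.56 ± 3.76 CPM in wild type (SD, n = 4 each; CPM divides counts by library sizes adjusted with TMM). In bulk samples fewer cells of a type and less RNA per cell cannot be told apart.

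RNA of every transmitter class was detected, and the genes of tyramine and octopamine synthesis took most of it. Counts of tdc-1 and tbh-1 together made up 87.7% of the summed counts of the 10 genes in skn-1gf (10464 of 11936) and 84.0% in wild type (11011 of 13112). In single libraries the portion was 81.9 to 98.2% in skn-1gf and 61.3 to 93.2% in wild type. Together the 10 genes took 0.0451 to 0.114% of protein-coding counts in skn-1gf libraries and 0.0363 to 0.0668% in wild-type libraries, so the ranges overlapped.

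Levels of different genes were compared as CPM per kilobase (kb) of exon not shared with another gene. The order of the means over all 8 libraries was tbh-1 (124 CPM per kb), tdc-1 (59.6), unc-25 (16.3), unc-17 (6.09), cha-1 (5.72), eat-4 (4.70), unc-47 (1.35), cat-1 (1.31), tph-1 (1.29) and cat-2 (0.619). In skn-1gf, tbh-1 was at 182 ± 108 CPM per kb (SD, n = 4) and tdc-1 at 51.3 ± 11.2, with no overlap between these genes' libraries (86.7 to 337 against 43.01 to 66.9). In wild type they were at 66.1 ± 27.0 and 67.9 ± 22.02 and overlapped. Both lay above unc-25 within skn-1gf, and tdc-1 did so within wild type too. From unc-25 down to cat-2, each gene overlapped the next in the order in both genotypes. The decarboxylase gene unc-25, at 13.3 ± 10.3 CPM per kb in skn-1gf and 19.3 ± 17.8 in wild type, was the highest of the other 8 by mean in both. Counts of the lowest genes were small: unc-47 and cat-2 had under 10 counts in 5 of 8 libraries, and cat-1 and tph-1 in 4.

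**Figure D1:**
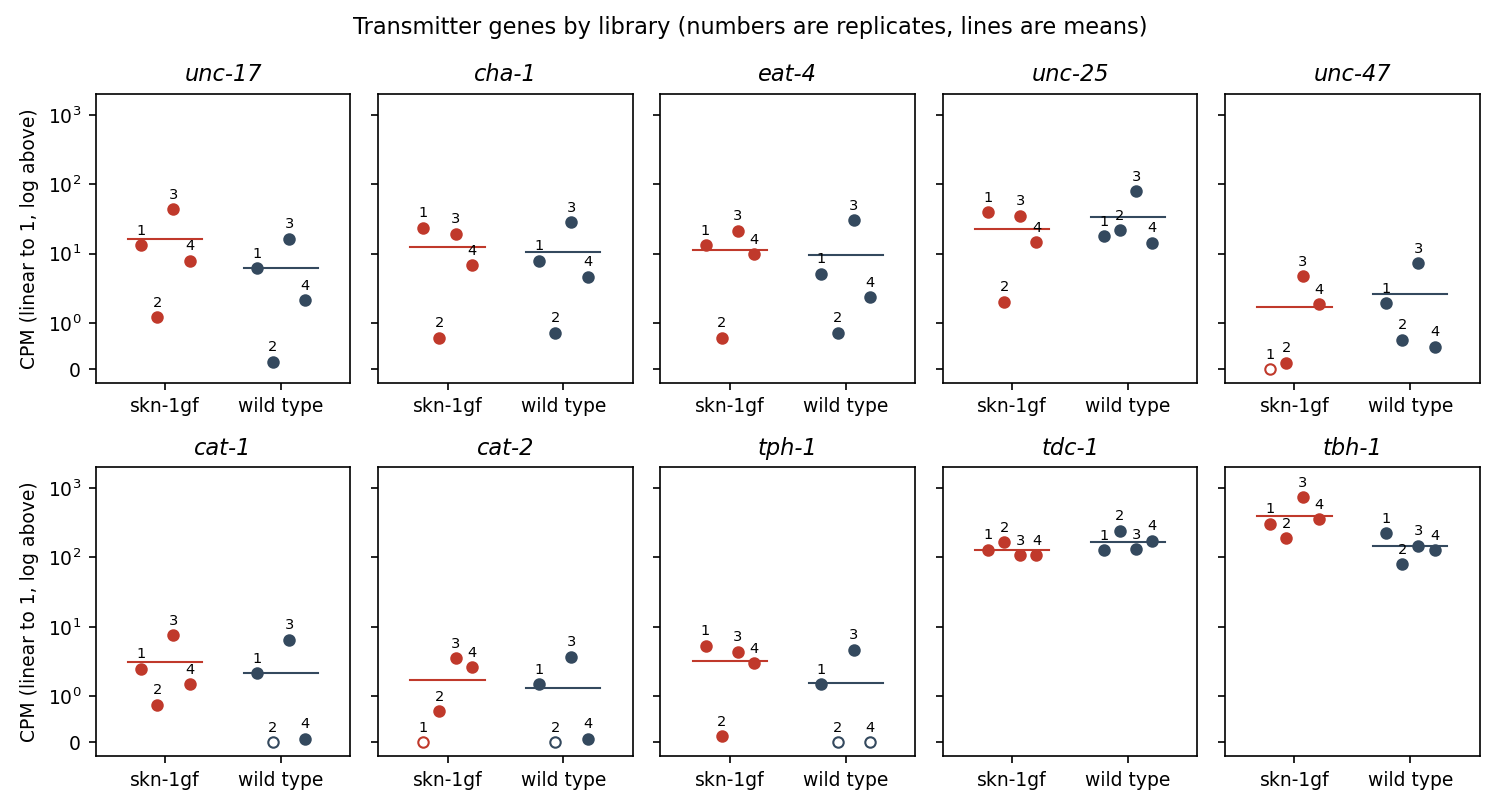
CPM of each of the 10 genes in the 4 skn-1gf and the 4 wild-type libraries, on an axis that is linear to 1 and logarithmic above; numbers are replicates, lines are group means, and open circles are libraries at 0 counts. tdc-1 and tbh-1 lie above the other genes in every library, and libraries numbered 2 are low for most of the other genes.

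The acetylcholine genes were measured well above 0 in the libraries with more neuronal RNA and were close to undetected in those numbered 2. The transporter gene unc-17 was at 13.1, 1.22, 43.5 and 7.86 CPM in skn-1gf replicates 1 to 4, against 6.17, 0.158, 16.3 and 2.11 CPM in wild-type replicates 1 to 4. Replicate 3 was the highest and replicate 2 the lowest in each genotype, and the genotypes overlapped. The synthesis gene cha-1 was at 23.4, 0.675, 19.3 and 6.74 CPM in skn-1gf, against 7.87, 0.790, 28.5 and 4.62 CPM in wild type, again overlapping. The genes lie on chromosome IV on the same strand, as parts of the nested cholinergic locus, and share 66 exon bases, so reads there cannot be assigned to either. The ratio of unc-17 to cha-1 counts was 0.561 (95% exact interval 0.440 to 0.711), 1.80 (0.542 to 6.84), 2.26 (1.68 to 3.06) and 1.17 (0.592 to 2.32) in skn-1gf replicates 1 to 4. In wild type it was 0.784 (0.546 to 1.12), 0.2 (0.00423 to 1.79), 0.572 (0.451 to 0.723) and 0.456 (0.275 to 0.737). These intervals, like all count intervals here, cover counting error only. Between skn-1gf replicates 1 and 3 the ratio differed beyond counting error, so the balance of this gene pair was not stable among libraries of 1 genotype.

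The glutamate transporter gene eat-4 followed a similar order over libraries. It was at 13.1, 0.675, 21.3 and 9.73 CPM in skn-1gf replicates 1 to 4, against 5.11, 0.790, 30.2 and 2.35 CPM in wild-type replicates 1 to 4. The wild-type value of replicate 3 lay above every skn-1gf library. In the annotation 119 exon bases of eat-4 lie opposite exons of ZK512.2 and ZK512.7, and the strand setting of the counting is not stated in the material used. ZK512.2 had 187 to 1299 counts, above eat-4 in level, and ZK512.7 had 15 to 263.

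The GABA genes differed from each other in level and in which libraries held them. The synthesis gene unc-25 was at 39.4, 2.03, 35.3 and 14.6 CPM in skn-1gf replicates 1 to 4, against 17.9, 21.5, 78.8 and 14.3 CPM in wild-type replicates 1 to 4. Unlike the acetylcholine and glutamate genes, it was not low in wild-type replicate 2, where it had 136 counts. The transporter gene unc-47 was at 0, 0.135, 4.67 and 1.87 CPM in skn-1gf, against 1.92, 0.632, 7.24 and 0.486 CPM in wild type. By counting error alone, its 0 counts in skn-1gf replicate 1 allow a level of up to 0.353 CPM (3 counts), in a library with 333 counts of unc-25. RNA lost before sequencing is not covered by that limit. Where both were counted, there were 7.56 to 15 unc-25 counts for each unc-47 count in skn-1gf and 9.33 to 34 in wild type.

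The genes of dopamine and serotonin neurons were at low levels, as was unc-47. For cat-1, which dopamine, serotonin, tyramine and octopamine neurons share, values were 2.48, 0.811, 7.59 and 1.497 CPM in skn-1gf replicates 1 to 4, against 2.13, 0, 6.53 and 0.0810 CPM in wild-type replicates 1 to 4. The dopamine gene cat-2 was at 0, 0.675, 3.501 and 2.62 CPM in skn-1gf, against 1.49, 0, 3.69 and 0.0810 CPM in wild type. The serotonin gene tph-1 was at 5.32, 0.135, 4.38 and 2.99 CPM in skn-1gf, against 1.49, 0, 4.68 and 0 CPM in wild type. All 3 genes were at 0 counts in wild-type replicate 2, which allows up to 0.473 CPM by counting error alone, and the genotypes overlapped for each. The highest count of any of them in a library was 46, for cat-1 in wild-type replicate 3.

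The tyramine gene tdc-1 varied least of the 10 over libraries. It was at 129, 167, 107 and 108 CPM in skn-1gf replicates 1 to 4, against 126, 245, 131 and 174 CPM in wild-type replicates 1 to 4. Its highest library, wild-type replicate 2, was 2.28-fold above its lowest, and it was the library in which unc-17, cat-1, cat-2 and tph-1 were lowest or at 0. That top rank depends on scaling. The TMM factor of this library was 0.658, against 0.877 to 1.30 in the others. As a fraction of all gene counts, tdc-1 was lower there (1548 of 9652874) than in wild-type replicate 4 (2149 of 10740970). The octopamine gene tbh-1 was at 308, 189, 735 and 358 CPM in skn-1gf replicates 1 to 4, against 222, 80.5, 148 and 127 CPM in wild-type replicates 1 to 4. Of the skn-1gf libraries, 3 lay above every wild-type library, and replicate 2 lay between wild-type replicates 1 and 3. The ratio of tbh-1 to tdc-1 counts within a library, which does not depend on scaling, was 2.38, 1.13, 6.87 and 3.32 in skn-1gf, against 1.76, 0.329, 1.13 and 0.728 in wild type. The 2 values of 1.13, in skn-1gf replicate 2 (95% exact interval 1.05 to 1.23) and wild-type replicate 3 (1.03 to 1.24), could not be told apart. Exons of tbh-1 lie opposite those of suox-1 and H13N06.7 over 398 bases, and those of tdc-1 opposite gei-14, at 179 to 1123 counts, over 73 bases. Against 509 to 2606 counts of tbh-1, suox-1 had 45 to 191 counts and H13N06.7 up to 9.

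The summed share of the 8 genes other than tdc-1 and tbh-1 put the libraries in the same order as the share of the 20 pan-neuronal genes, in 8 of 8 libraries. From the lowest to the highest library it ran from 0.000790% of protein-coding counts (skn-1gf replicate 2, 95% Clopper-Pearson interval 0.000581 to 0.00105%) to 0.0258% (wild-type replicate 3, 0.0244 to 0.0273%), a 32.6-fold range. The pan-neuronal share had a 5.76-fold range. Both shares come from the same libraries, and the agreement is given as a description. The make-up of the pan-neuronal sum differed between libraries: maco-1 held 5.12 to 35.9% of it and snb-1 3.18 to 16.6%. In wild-type replicate 2, unc-25 held 136 of the 151 counts of the 8 genes. The order was not recomputed without maco-1 and snb-1 or without unc-25, so it may rest on single genes. Some neighbours in it could not be told apart. The shares of the 8 genes in skn-1gf replicate 4 (0.00473 to 0.00675%) and wild-type replicate 1 (0.00550 to 0.00668%) overlapped in their 95% intervals. For tdc-1 with tbh-1 the range was 2.88-fold, and 2 of 8 libraries held the same rank as in the pan-neuronal order.

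**Figure D2:**
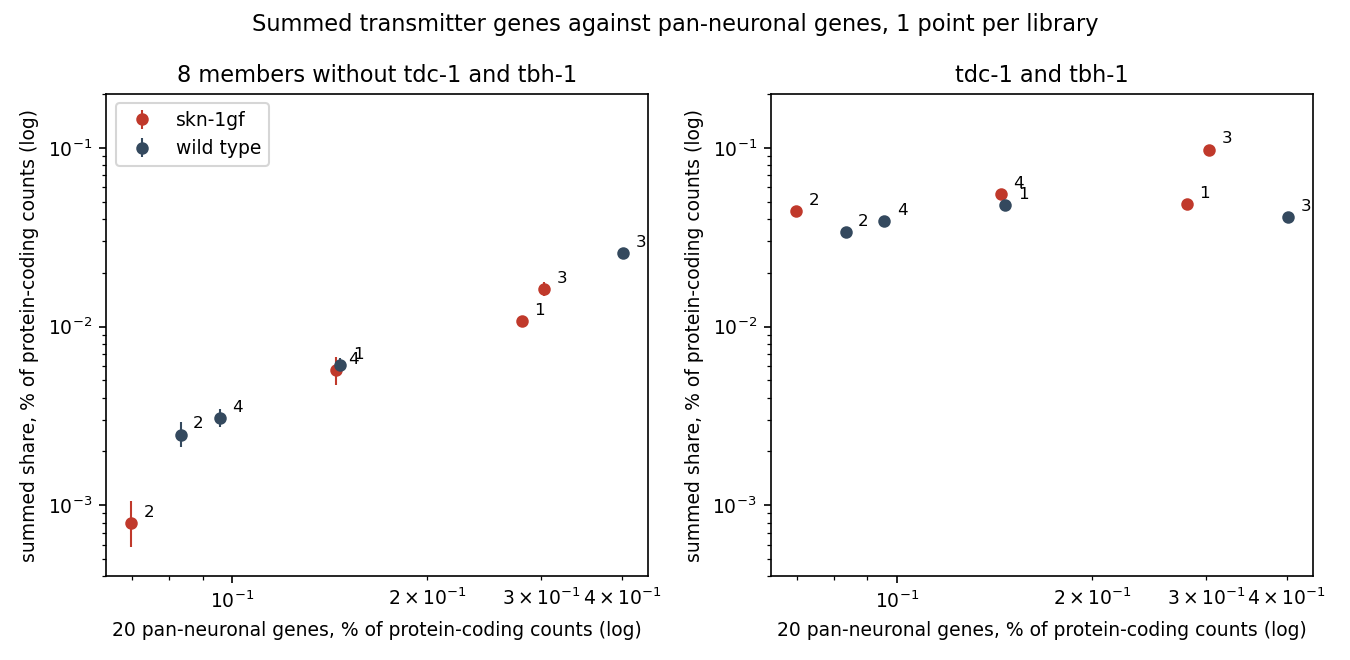
Summed share of protein-coding counts (percent, log scale) of the 8 genes without tdc-1 and tbh-1, left, and of tdc-1 and tbh-1, right, against the share of 20 pan-neuronal genes (percent, log scale), 1 point per library with its replicate number; bars are 95% Clopper-Pearson intervals. The left points climb together from 0.000790 to 0.0258%, and the right points stay between 0.0338 and 0.0976%.

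Profiles over the 8 libraries were compared as the root mean square distance between log2 CPM values, each gene centred on its own mean. Among the 45 pairs of the 10 genes, cha-1 and eat-4 were closest (0.48), then eat-4 and tph-1 (0.65) and unc-17 and eat-4 (0.71). The pair farthest apart was unc-17 and tdc-1 (2.34), and the median pair was at 1.45. Of genes that act in the same pathway, tdc-1 and tbh-1 were at 1.26, unc-25 and unc-47 at 1.43, and unc-17 and cha-1 at 0.82. Of the other 9 genes, tbh-1 was the nearest to tdc-1, before unc-25 (1.56). That rank does not mean a shared pattern, because tbh-1 also had the smallest spread of the 9 (0.93). In every library but wild-type replicate 3, tdc-1 and tbh-1 lay on opposite sides of their means. In wild-type replicate 2 they were at 0.77 and −1.44, and in skn-1gf replicate 3 at −0.42 and 1.75.

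Mean profiles of marker lists were set against each gene in the same way, a comparison chosen after the values were seen. For cha-1 the distance to the touch receptor list, genes such as mec-7 and mec-12 of the mechanosensory neurons, was 0.50, to the pan-neuronal list 0.78 and to the germline and oocyte list 2.07. For eat-4 these were 0.54, 0.77 and 2.05. For tdc-1 the order was turned round, with 0.32 to germline and oocyte, 1.37 to pan-neuronal and 1.74 to touch receptor genes. Its own spread around its mean was 0.38, so this profile was nearly flat, as was that of the germline list. For tbh-1 the distance was 0.52 to the ASI list (the 4 genes that passed the filter) and 0.73 to the gonadal sheath genes ceh-18 and lim-7. Between these lay lists of further GABA (0.63) and monoamine (0.66) pathway genes. The body wall muscle and pan-neuronal lists were both at 0.92, and the germline list was at 1.07. For tdc-1 the gonadal sheath list was at 1.52. The nearest list was not always one of neuronal genes. For unc-17 it was glia (0.64), with pan-neuronal at 1.09. For unc-25 it was pharynx (0.74), with pan-neuronal at 0.83, intestine at 0.88 and body wall muscle at 0.92. For cat-1 (0.63) and tph-1 (0.76) it was transcription factors that select transmitter identity, and for cat-2 (1.16) and unc-47 (1.30) further monoamine pathway genes.

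**Figure D3:**
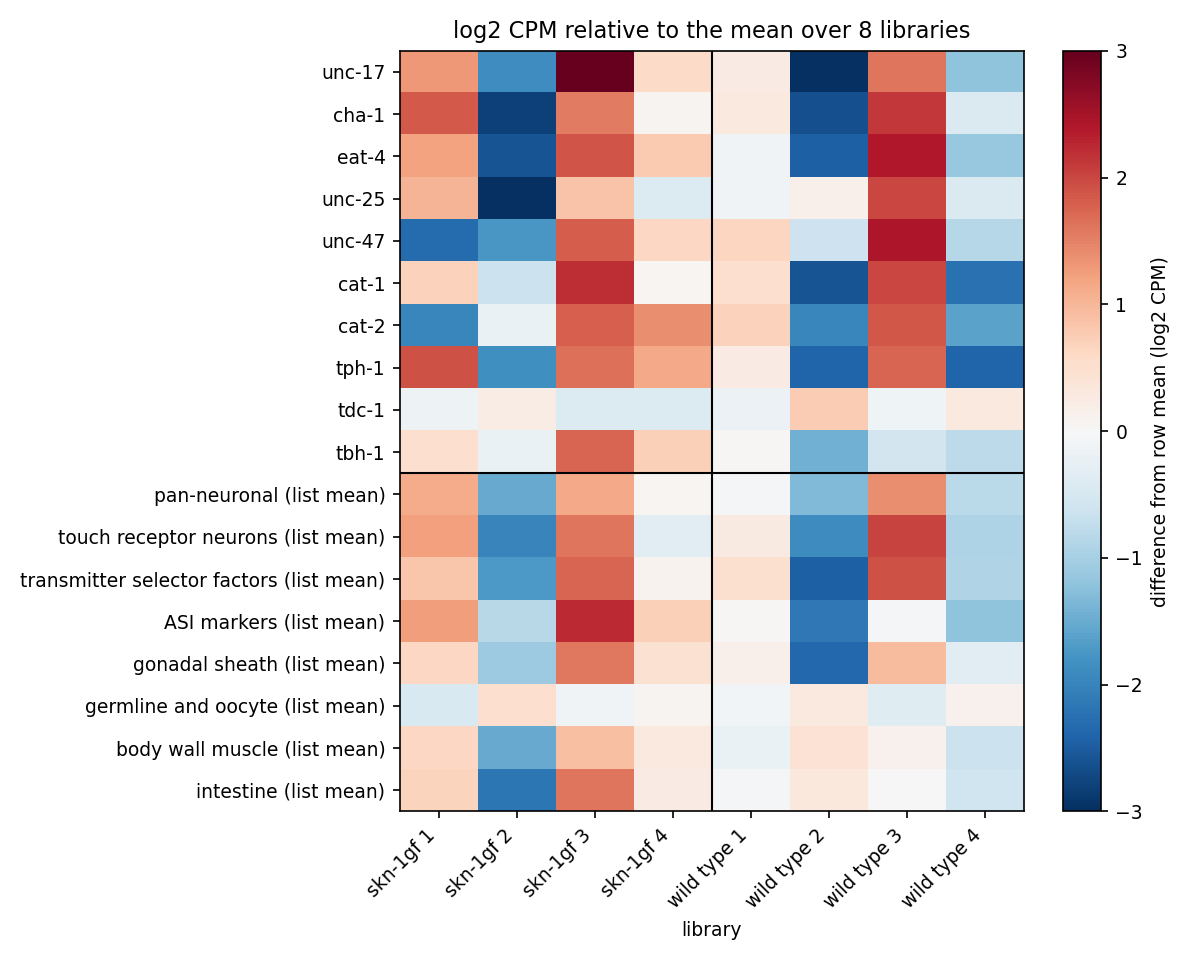
Heat map of log2 CPM relative to the row mean over 8 libraries, for the 10 genes (upper rows) and for mean profiles of 8 gene lists (lower rows), with skn-1gf libraries left of wild-type libraries; colours end at 3 to either side. tdc-1 is pale like the germline and oocyte list, while unc-17, cha-1 and eat-4 are low in both libraries numbered 2 and high in both numbered 3.

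The 3 tested genes with the nearest profiles are given for each gene as a description of these libraries. For unc-17 they were T19D12.4 (0.28), scd-2 (0.30), which encodes a receptor tyrosine kinase of the ALK family, and C26F1.1 (0.36). For cha-1 they were egl-47 (0.27), tub-1 (0.33), the worm Tubby homologue, and R07E4.1 (0.36). R07E4.1 was also the nearest gene to eat-4 (0.31), before F54C8.6 (0.34) and K01A11.1 (0.38). For unc-25 the nearest were clip-1 (0.30), the zinc finger gene sem-4 (0.30) and W05H12.1 (0.34). For unc-47 they were F01E11.3 (0.38), C34C6.3 (0.53) and C54G6.3 (0.55). The cilium gene dyf-6 lay closest to cat-1 (0.15), followed by arrd-4 (0.27) and the Hox gene php-3 (0.38). For cat-2 they were T04C12.26 (0.27), F23F1.6 (0.29) and C44H4.6 (0.34), and for tph-1 R10E8.6 (0.28), T10B5.10 (0.37) and npr-40 (0.38). For tdc-1 they were rps-3A (0.11), a ribosomal protein gene, pdpr-1 (0.11) and rnf-5 (0.11), and for tbh-1 fkb-7 (0.21), C39D10.7 (0.26) and sdz-27 (0.28). Median distances over all tested genes were 0.99 for tdc-1, 1.17 for tbh-1 and 1.64 to 2.05 for the other 8.

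In the comparison of genotypes, the question was whether gain of SKN-1 function altered the RNA of sorted cells. None of the 10 transmitter genes was called different between skn-1gf and wild type, and tbh-1 came nearest. All 10 passed the low-count filter. The edgeR quasi-likelihood test over 12734 genes called 0 of the 10 at an adjusted p of 0.05, where 0% of all genes were called. At an unadjusted p under 0.05 there was 1 of the 10, tbh-1, against 4.07% (518) of all genes. DESeq2 called 0 of the 10 and 6 genes in all, and limma-voom 0 and 0. The log2 fold change (skn-1gf minus wild type) was positive in 7 and negative in 3 of the 10, with a median of 0.29, where 53.7% of all tested genes were positive and their median was 0.04. In CPM, 0 of the 10 had groups that did not overlap, where 2.17% of all genes did (1.01% with skn-1gf above and 1.15% with skn-1gf below).

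Mean tbh-1 was 398 ± 236 CPM in skn-1gf and 144 ± 59.0 CPM in wild type (SD, n = 4 each). The fitted log2 fold change of 1.46 had an SE of 0.43 and a 95% interval of 0.53 to 2.39, with an unadjusted p of 0.00509 and an adjusted p of 0.999989 in edgeR. With libraries left out in turn it was lowest, at 0.98, when skn-1gf replicate 3 was missing and highest, at 1.75, when wild-type replicate 1 was. Without a low-count filter edgeR called it (adjusted p = 0.0184), in a setting that called 159 of 24642 genes, 51 of them higher in skn-1gf. The adjusted p of tbh-1 in edgeR over the alternatives ran from 0.0184 to 0.999938. Of the marker lists, 0 genes were called in edgeR. All 4 ASI markers that passed the filter had a positive log2 fold change, with a median of 2.27, while str-3, which did not pass, was counted in wild type alone. Both gonadal sheath genes were positive (median 0.60), and so were all tested genes of the glia (3, median 1.59), pharynx (5, median 0.95), coelomocyte (2, median 0.83) and uv1 (2, median 0.55) lists. The uv1 list shares ida-1 with the pan-neuronal list. Lists that went the other way were sperm, with all 4 tested genes negative (median −1.58), and hypodermis, with 2 positive and 3 negative (median −0.43). Gonadal sheath genes took 0.00180 to 0.0116% of protein-coding counts in skn-1gf and 0.00209 to 0.00951% in wild type. The part of these cell types in the tbh-1 value was not tested.

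For tdc-1 the mean was 128 ± 27.95 CPM in skn-1gf and 169 ± 54.8 CPM in wild type, with a log2 fold change of −0.40 (SE 0.29, interval −1.04 to 0.23). Its interval was the narrowest of the 10 and excludes a 2-fold higher level in skn-1gf.

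The other 8 genes had wide intervals. For unc-17, at 16.4 ± 18.7 CPM in skn-1gf and 6.19 ± 7.21 CPM in wild type, the log2 fold change was 1.40 (interval −1.11 to 3.91), and 0.18 without skn-1gf replicate 3. The next, tph-1, was at 3.21 ± 2.26 and 1.54 ± 2.21 CPM with a log2 fold change of 1.05 (−2.27 to 4.38). For cat-1 it was 0.49 (−2.57 to 3.56), for cat-2 0.32 (−3.06 to 3.70), for cha-1 0.26 (−2.05 to 2.57), for eat-4 0.22 (−2.19 to 2.62), for unc-25 −0.53 (−2.24 to 1.17) and for unc-47 −0.67 (−3.83 to 2.498). In each of these 6 the sign turned when single libraries were left out. Without wild-type replicate 3 it became 0.35 for unc-25 and 0.66 for unc-47. At this depth and spread a difference of several fold in these genes was not detectable.

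**Figure D4:**
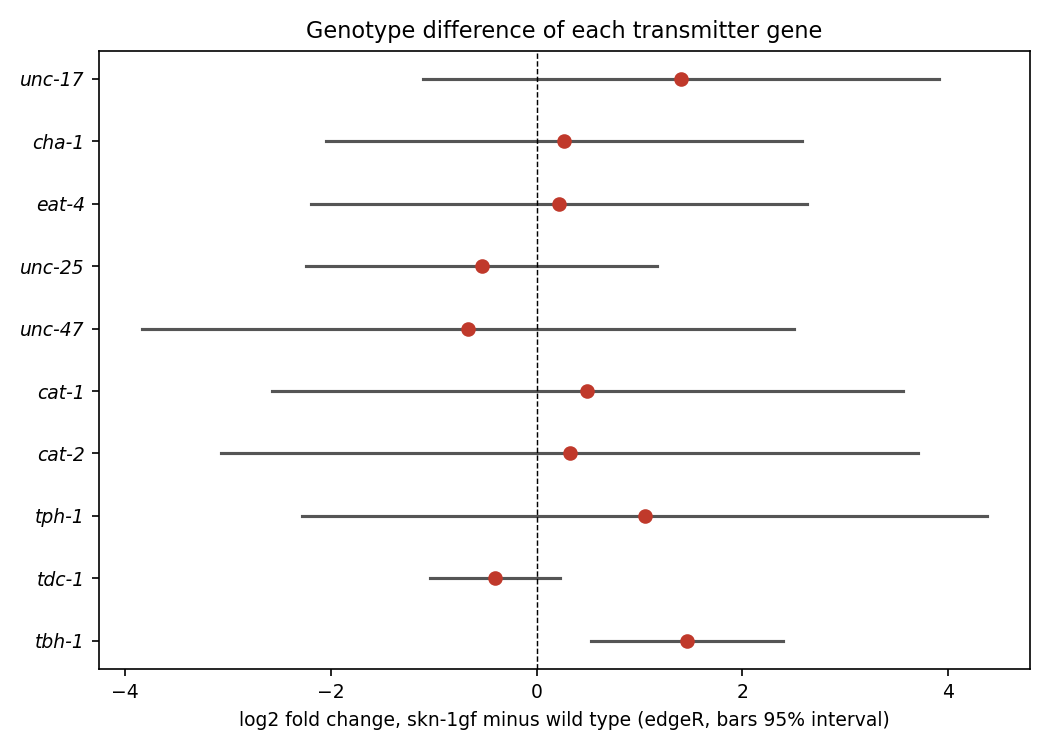
Log2 fold change of each of the 10 genes, skn-1gf minus wild type, with its 95% confidence interval from edgeR. The tbh-1 interval, 0.53 to 2.39, lies above 0. That of tdc-1 is the narrowest and spans 0, as do the other 8.

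Because neuronal RNA differed between libraries, counts were also expressed per 1000 pan-neuronal counts. On this scale unc-25 was at 15.5, 3.61, 13.5 and 11.96 in skn-1gf replicates 1 to 4, against 16.8, 26.9, 28.7 and 19.2 in wild-type replicates 1 to 4. Every skn-1gf library was below every wild-type library, with 11.2 ± 5.23 in skn-1gf and 22.9 ± 5.82 in wild type. The gap, 15.5 against 16.8, rests on 333 unc-25 counts in skn-1gf replicate 1 and 168 in wild-type replicate 1. No counting interval was computed for it, and it may lie within counting error. Of the 10 genes 1, unc-25, had groups that did not overlap on this scale, against 0.715% of all tested genes (0.471% with skn-1gf below). This gene was singled out after its values were seen. With library sizes set to pan-neuronal counts, edgeR gave a log2 fold change of −1.03, an unadjusted p of 0.237 and an adjusted p of 0.999865. The groups stayed apart without maco-1 and snb-1, which held up to 35.9% and 16.6% of pan-neuronal counts in skn-1gf replicate 2: 7.61 to 17.6 in skn-1gf and 21.5 to 35.8 in wild type. That uses the same unc-25 counts for which the gene was singled out, so it is no independent check. The tbh-1 gene was at 121.5, 337, 281 and 293 in skn-1gf, against 208, 101, 54.1 and 170.5 in wild type. Here skn-1gf replicate 1 lay between wild-type libraries, and the log2 fold change was 0.95 (unadjusted p = 0.243 in edgeR). For eat-4 the means were 5.62 ± 3.25 in skn-1gf and 4.99 ± 4.32 in wild type, and for cha-1 5.83 ± 3.44 and 6.25 ± 3.93.

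**Figure D5:**
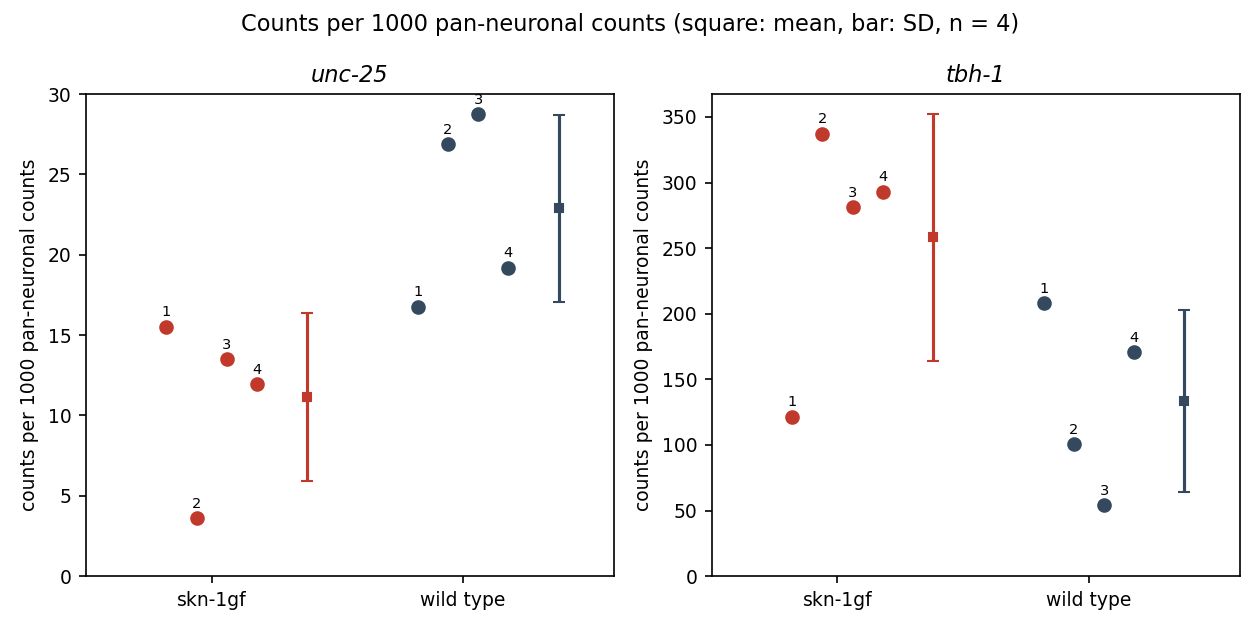
Counts of unc-25 and tbh-1 per 1000 counts of 20 pan-neuronal genes, in skn-1gf and wild-type libraries numbered by replicate; squares are means and bars SD (n = 4 each). The skn-1gf libraries reach 15.5 for unc-25 and wild-type libraries start at 16.8, while for tbh-1 the genotypes overlap.

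The remaining genes of the same pathways were read from the same fit, and 0 were called. Of 5 further acetylcholine genes, all passed the filter, with 4 positive and 1 negative log2 fold change and a median of 0.13. They include the choline transporter gene cho-1, at 11.2 ± 9.36 CPM in skn-1gf and 10.2 ± 14.98 CPM in wild type, and cholinesterase genes such as ace-1 (17.4 ± 8.94 and 10.03 ± 5.06 CPM), ace-3 (7.96 ± 8.44 and 15.4 ± 13.8 CPM) and ace-4 (3.66 ± 2.46 and 1.90 ± 2.68 CPM).

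Of 16 further glutamate genes, 15 passed the filter, with 5 positive and 10 negative values and a median of −0.33, against 0.04 over all tested genes. Of these, 2 of 15 had an unadjusted p under 0.05 in edgeR, where 4.07% of all tested genes did. The glutamine synthetase gene gln-2 was at 7.08 ± 4.34 CPM in skn-1gf and 34.4 ± 39.6 CPM in wild type (log2 fold change −2.28, SE 0.88), with 92.2 CPM in wild-type replicate 2. The transporter gene vglu-2, a relative of eat-4, was at 11.8 ± 6.76 and 29.6 ± 14.1 CPM (−1.33, SE 0.59). The glutaminase gene glna-3 was the 1 gene of the 15 that did not overlap between genotypes, where 2.17% of all tested genes did not, and its unadjusted p was 0.107 in edgeR. It was at 19.6, 13.5, 6.42 and 16.1 CPM in skn-1gf, against 24.3, 26.2, 20.0 and 30.1 CPM in wild type. The uptake transporter gene glt-3 was at 5.61 ± 3.51 and 2.00 ± 1.32 CPM.

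Of 3 further GABA genes, 2 passed the filter, the uptake transporter gene snf-11 (18.3 ± 11.9 CPM in skn-1gf and 10.6 ± 10.5 CPM in wild type) and the GABA transaminase gene gta-1 (202 ± 108 and 182 ± 112 CPM). The gene unc-46, whose product sorts the vesicular GABA transporter, had 8 counts in skn-1gf and 24 in wild type. Of 10 further monoamine genes, 9 passed, with 7 positive and 2 negative values and a median of 0.18. The smallest p values were those of the monoamine oxidase gene amx-2 (24.6 ± 18.4 and 8.96 ± 6.28 CPM, log2 fold change 1.46, SE 0.89) and cat-4, whose product makes the cofactor of cat-2 and tph-1 (35.4 ± 30.8 and 19.2 ± 2.48 CPM). Other cofactor genes were pcbd-1 (13.97 ± 2.43 and 9.86 ± 6.81 CPM) and ptps-1 (3.79 ± 2.80 and 2.72 ± 2.36 CPM).

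Of 14 transcription factor genes known to select transmitter identity, 9 passed the filter, with 6 positive and 3 negative values and a median of 0.45. Among them were the dopamine neuron factors ast-1 (10.7 ± 8.77 CPM in skn-1gf and 5.68 ± 7.19 CPM in wild type) and ceh-43 (7.51 ± 6.02 and 11.7 ± 8.78 CPM), and the LIM homeobox genes lin-11 (9.13 ± 5.82 and 5.36 ± 6.64 CPM) and ceh-14 (2.57 ± 3.39 and 3.80 ± 3.45 CPM). Genotypes overlapped for all 4.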

How the data were processed

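The authors deposited raw counts of reads for each gene, in a separate file for each of the 8 libraries. Per the submitters' processing notes, tools were STAR 2.7.6a, HTSeq 2.0.2, R 3.5.2 and DESeq2, with ce10 as the build. Annotation release, strand setting and treatment of duplicates: not given in the sources used here. A RefSeq table of assembly WBcel235 held symbols for 46919 of the 46928 locus tags. Exon lengths and overlaps came from Ensembl release 115 on the same assembly. No coordinates are given, because the builds carry different names. Summary lines stayed out of library sizes. They held 2.76 to 14.4% (no feature) and 1.48 to 2.62% (ambiguous) of uniquely aligned reads.

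Genotypes were compared with edgeR 4.0.16 (R 4.3.3, glmQLFit and glmQLFTest, genotype only, TMM, filterByExpr with minimum count 10 and minimum total 15), adjusted by Benjamini-Hochberg over 12734 genes with a threshold of 0.05. The SE was derived from the same test. Log2 CPM used a prior count of 2. The script was tested on simulated data with less spread between replicates than these libraries had, so that test does not measure power or false calls here. Alternatives were DESeq2 1.42.0, limma-voom 3.58.1, other scalings and filters, protein-coding genes, a replicate block and left-out libraries. The members and lists were chosen with earlier results of these data known. All 10 members are named, with up to 4 genes of smallest p in each pathway list and the 3 nearest profiles. The comparison with marker list profiles and the scale of pan-neuronal counts for single genes were chosen after values were seen. Intervals of shares are exact (95%).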

Additional observations from a re-analysis of the deposited data

Results flagged for a closer look

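In 22 groups of 4 libraries (10 genes and their summed share in each genotype), 2 had a library far from the others, where chance gives about 1 in 20. Both were wild-type replicate 3, at 30.2 CPM for eat-4 and 78.8 CPM for unc-25. This library also had the highest pan-neuronal share (0.402%) and the most genes with a count (20394). Without it the log2 fold change was 2.00 for eat-4 and 0.35 for unc-25.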

How the results depend on the processing

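Of 178 values of the 10 genes under alternatives, 160 kept their direction and their side of the threshold, 17 turned and 1 gained a call. With no filter on low counts, 159 of 24642 genes were called by edgeR, and 1 of the 10, tbh-1 (log2 fold change 1.42). DESeq2 called 6 genes, and 0 were called under the other settings. With total-count scaling, which moved the median of all genes to −0.12, values were −0.18 for cha-1, −0.23 for eat-4 and −0.059 for cat-2. Pan-neuronal scaling moved that median to −0.14 and gave −0.10 for cha-1. Leaving out single libraries gave ranges of −0.29 to 1.48 for cha-1, −0.38 to 2.00 for eat-4, −0.97 to 0.35 for unc-25, −2.14 to 0.66 for unc-47, −0.51 to 2.02 for cat-1, −0.37 to 1.61 for cat-2, 0.18 to 2.52 for unc-17, 0.57 to 2.63 for tph-1, −0.57 to −0.18 for tdc-1 and 0.98 to 1.75 for tbh-1. Without both libraries numbered 2, a setting chosen after seeing the data, tbh-1 was at 1.49. The cause of these shifts was not tested. The difference in summed share, 0.0199 percentage points, was 0.00523 without skn-1gf replicate 3. Deviations of same-numbered libraries had correlations across genes of −0.01, 0.06, 0.51 and 0.06, so numbers were not taken as pairs in the main fit. The 0.51, for the replicates 3, was above that of any differently numbered libraries (−0.38 to 0.38). With the replicate block edgeR called 0 genes, and tbh-1 had a log2 fold change of 1.38 (adjusted p = 0.901 in edgeR). For unc-17 the block gave 1.67 (unadjusted p = 0.0274, adjusted p = 0.904 in edgeR), against an unadjusted p of 0.247 in the main edgeR fit. For cat-2 and unc-47, 1 alternative each (the stricter filter) gave no value. The lowest library total, 2976889 counts, limits detection to about 1.12 CPM at 3 counts, by counting error alone.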

Other observations

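Several neuronal genes were at 0 counts in libraries where other neuronal genes were counted. Of 78 genes of the transmitter, pathway, selector and pan-neuronal lists, 10 were at 0 in skn-1gf replicate 1, a library with 21440 pan-neuronal counts, and 0 in wild-type replicate 3, with 19306. In skn-1gf replicate 1 the dopamine reuptake transporter gene dat-1 and the serotonin reuptake transporter gene mod-5 were at 0 along with cat-2 and unc-47, beside 169 counts of the dopamine neuron factor ast-1 and 45 of tph-1. In skn-1gf replicate 2, with 4151 pan-neuronal counts, 5 of the 78 were at 0, against 23 in wild-type replicate 2, with 5060. In that wild-type library ace-3 had 94 counts and cho-1 had 0.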
